A study of Mus musculus with 6 samples.

Results

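The matricellular genes of bone examined here were *Postn*, *Sparc*, *Sparcl1*, *Thbs1*, *Thbs2*, *Thbs3*, *Thbs4*, *Tnc*, *Fn1* and *Tgfbi*. They were taken by gene symbol, with all of their probes, from a table of 45281 array probes, where they made up 10 of 31508 symbols and 25 of the probes. The rule that picked their probes used the symbol alone. The question was what 24 hours of parathyroid hormone (PTH) did to their RNA in cortical bone.

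Bone tubes were the shafts of tibia and femur from C57BL6 mice aged 3 months by the labels, with no allele or transgene named. The ends were removed below the growth plate, marrow was flushed out, and collagenase with trypsin was used to take off surface cells. After a night in medium with serum, tubes were left untreated for 24 hours (control, 3 preparations) or given the hormone fragment Pth 1-34 at 250 nM for 24 hours (PTH, 3 preparations). The controls shared the digestion, the serum and the culture. Each preparation held the pulverized bones of several pooled mice, and whether preparations of a group came from separate experiments is not given by the labels, so the p-values below measure the spread between these preparations.

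Matricellular proteins are secreted into the extracellular matrix and act there mainly on how cells attach, signal and assemble collagen, rather than as its main load-bearing fibres. In bone, osteoblasts and periosteal cells are well known sources of them, and osteonectin, the product of *Sparc*, is among the most abundant non-collagen proteins of the mineralized matrix. PTH acts through its receptor on osteoblasts and osteocytes, raises cyclic AMP, and is known to change many matrix genes.

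On each array 34.2% to 38.4% of probes had a detection p under 0.05, the limit taken as above background, and mean signal was 298 to 349 on 5 arrays and 429 on the PTH 3 array. Signals were background corrected and quantile normalized, and all values below are on that normalized log2 scale unless raw signal is named. Testing needed 3 or more of the 6 arrays above background, each gene was represented by its brightest tested probe, and limma gave the difference between PTH and control with p adjusted over all 16214 probes tested. Osteocyte and osteoblast markers were present: *Mepe*, an osteocyte matrix protein, read 12.26 ± 0.08 in control (SD, n = 3), and *Ibsp*, bone sialoprotein, 12.52 ± 0.03, and both were lower with PTH by the test (log2 change −1.02 and −2.01, adjusted p = 0.0128 and 0.000747 by limma), as was *Sp7*, an osteoblast transcription factor (−0.81, adjusted p = 0.0259). *Gp38*, the podoplanin gene of early osteocytes, changed by 0.70 with all PTH arrays higher (adjusted p = 0.056 by limma). The markers *Fgf23* of osteocytes and *Runx2* of osteoblasts were above background on no array.

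No matricellular gene passed the test at an adjusted p under 0.05. Of the 10, 8 were tested, and *Sparcl1* and *Thbs4* were too dim to test. Among all 11979 genes tested, 1.73% passed, 0.685% as higher and 1.04% as lower with PTH. At an unadjusted p under 0.05 there were 3 of the 8, *Sparc*, *Thbs2* and *Fn1*, against 14.9% of all genes. The PTH arrays lay wholly apart from the control arrays for 4 of the 8, against 21.9% of all genes. *Fn1* lay above, where 11.1% of all genes did, and *Sparc*, *Thbs2* and *Tnc* lay below, where 10.8% of all genes did. With quantile normalization but no background correction, *Fn1* passed as higher and *Sparc* as lower, each by its brightest probe (adjusted p = 0.022 and 0.0334 by limma), and 589 genes in all did. The median log2 change of the 8 in the analysis reported was −0.08, with a range of −0.35 to 0.38, and that of all genes tested was 0.005, with quartiles of −0.163 and 0.166. The values of the brightest probe on each array are shown in the plot by gene and array. In whole bone RNA, fewer cells of a type and less RNA per cell cannot be told apart.

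**Figure D1:**
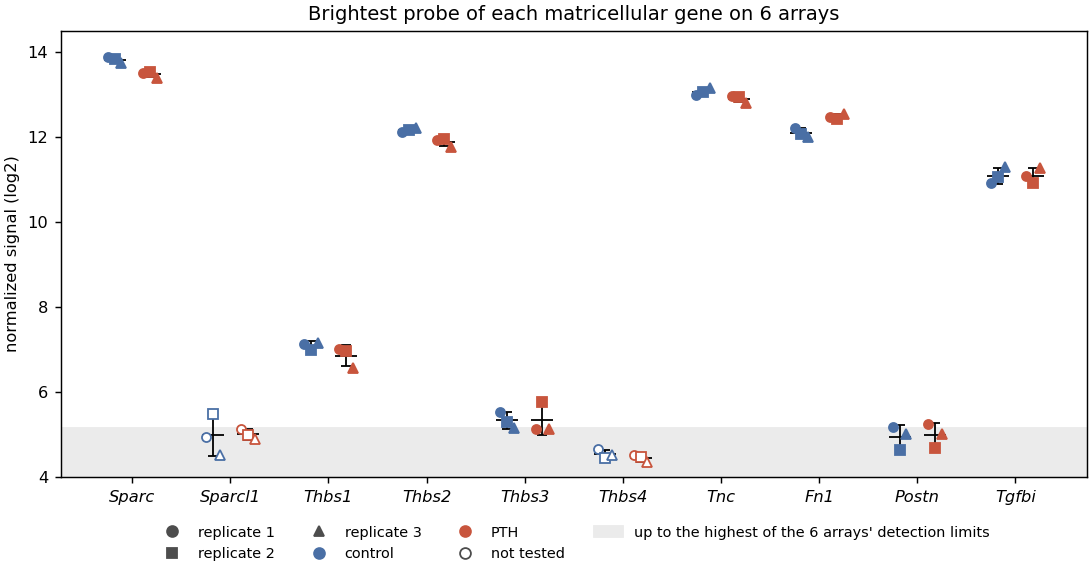
Normalized log2 signal (vertical axis) of the brightest probe of each of the 10 matricellular genes on 3 control and 3 PTH arrays, with the mean and SD of each group as black bars; open symbols mark the genes that were not tested and the grey band ends at 5.149, the highest of the 6 arrays' detection limits. Signals of different probes are not comparable in level. *Sparc*, *Thbs2* and *Tnc* lie lower on all PTH arrays, *Fn1* lies higher, and *Sparcl1*, *Thbs4*, *Postn* and *Thbs3* lie in or near the band.

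RefSeq promoter windows of build GRCm38.p6 were at hand for 7 of the 10 genes, as 9 windows, since *Postn* and *Tnc* each have a pair of annotated starts. In the 250 bases before each start, on both strands, none of the 9 windows held TGACGTCA, the full cyclic AMP response element, which 1.5% of all 32851 windows held. None held TGACG, the short form of that element (17.8% of all windows, those with the full element included), the AP-1 letters TGANTCA (6.7%) or the RUNX letters TGTGGT (4614 of the 32851). No match says only that these letters were not in these windows. The 250 bases before the start of *Sparc* (chr11:55420081-55420330, minus strand) and *Thbs2* (chr17:14694263-14694512, minus strand) are printed, 5′ to 3′ and with no capitals because no searched letters were found. They are the windows of 2 genes whose brightest probe read below control on all PTH arrays, though *Sparc* probe ILMN_1243212 read above.
Sparc: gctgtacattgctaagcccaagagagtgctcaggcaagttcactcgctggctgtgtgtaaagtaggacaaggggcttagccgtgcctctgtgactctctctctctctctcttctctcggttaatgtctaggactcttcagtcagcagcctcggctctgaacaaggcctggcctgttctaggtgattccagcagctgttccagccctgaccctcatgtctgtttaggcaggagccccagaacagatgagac
Thbs2: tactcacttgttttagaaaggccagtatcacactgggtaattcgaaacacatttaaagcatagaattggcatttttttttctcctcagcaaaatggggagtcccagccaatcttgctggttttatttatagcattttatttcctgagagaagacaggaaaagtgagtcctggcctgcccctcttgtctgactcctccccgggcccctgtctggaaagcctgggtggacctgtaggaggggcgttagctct

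The TATA box core TATATAA, looked for after the windows had been seen, was present in 3.0% of all windows and in 1 window each of *Postn* and *Tnc*. It began 28 bases before the later *Postn* start, 1840 bases from the other one, and 29 bases before the later *Tnc* start, 79 bases from the other one. Both stretches are shown with the core in capitals (*Postn*, chr3:54361067-54361096, plus strand; *Tnc*, chr4:64046948-64046977, minus strand), because their shared core is what set these windows apart from the other 7.
Postn: acagcccagagcTATATAAactcagctctc
Tnc: gaaggagctcccTATATAAgcctgccaaag

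Osteonectin, encoded by *Sparc*, binds collagen and calcium and is laid down with the bone matrix. Its brightest probe, ILMN_3136561, read 13.89, 13.85 and 13.75 in control and 13.51, 13.53 and 13.41 with PTH. All PTH arrays were lower than all control arrays. The log2 change was −0.35 (SE 0.12, 95% interval −0.62 to −0.07), or 1.27-fold lower, with an unadjusted p of 0.0193 and an adjusted p of 0.226 by limma. The next brightest probe, ILMN_3059326, read 13.69, 13.49 and 13.50 in control and 13.25, 13.16 and 13.09 with PTH, again with no overlap, a change of −0.40 (SE 0.12, adjusted p = 0.197 by limma).

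The remaining *Sparc* probe went the other way. ILMN_1243212 read 11.16, 11.19 and 11.48 in control and 11.78, 11.51 and 12.05 with PTH, so that all PTH arrays were higher, and its log2 change was 0.50 (SE 0.17, 95% interval 0.10 to 0.91, adjusted p = 0.229 by limma). The change of this probe exceeded that of the brightest one by 0.85, with no overlap of the differences between groups. An exact two-sided permutation test of that difference gave p = 0.1, the smallest that 3 arrays against 3 can give, and 0.275 after Benjamini-Hochberg adjustment over 11 such comparisons of probes. A single direction for *Sparc* RNA therefore depended on the probe: with the mean of its 3 probes the log2 change was −0.08. Raw signals of the brightest probe were 12520, 14940 and 13710 in control and 9977, 12070 and 15120 with PTH, and these overlapped, the brightest being on the PTH 3 array. Those of ILMN_3059326 overlapped as well. The raw signals of ILMN_1243212 did not overlap, at 1940, 2398 and 2903 in control and 2963, 3062 and 5887 with PTH.

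*Sparcl1*, which encodes hevin, a relative of osteonectin known from vessels and brain, had 1 probe. It read 4.94, 5.48 and 4.51 in control and 5.14, 4.99 and 4.89 with PTH. It was above background on the control 2 array alone, so no change was computed.

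**Figure D2:**
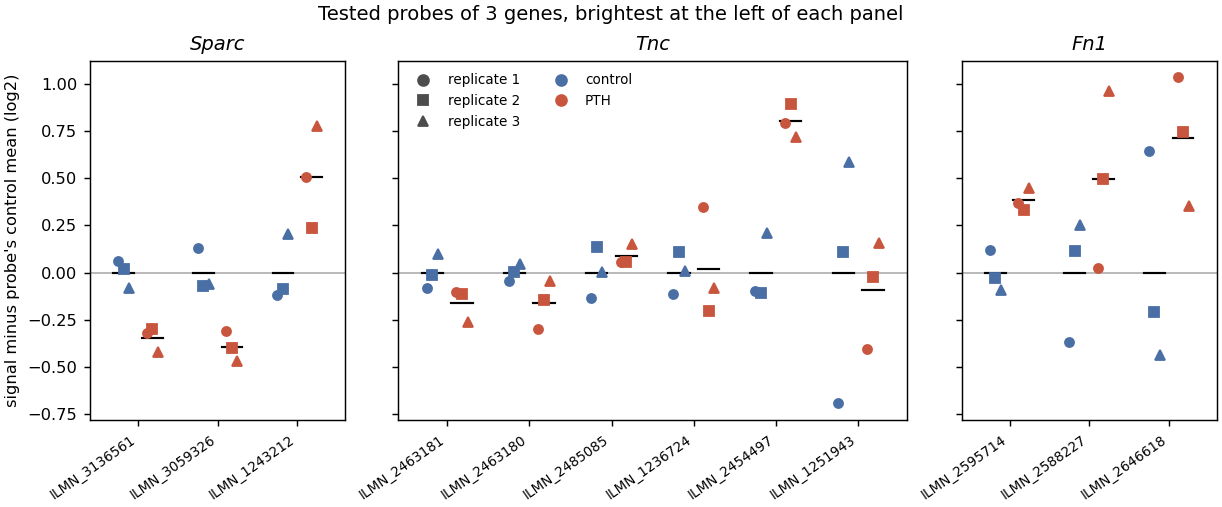
Log2 signal of each tested probe of *Sparc*, *Tnc* and *Fn1* on 3 control and 3 PTH arrays, given as the difference from the probe's own control mean (vertical axis), with group means as black bars and the brightest probe at the left of each panel. The *Sparc* probes lie at −0.35, −0.40 and 0.50 with PTH, 1 dim *Tnc* probe lies at 0.80 while the others lie between −0.16 and 0.09, and the *Fn1* probes lie at 0.38, 0.49 and 0.71.

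The thrombospondins are large oligomeric glycoproteins of the matrix. Thrombospondin-1 and thrombospondin-2, from *Thbs1* and *Thbs2*, are trimers known for restraining vessel growth, and thrombospondin-1 is also stored in platelet granules and activates latent TGF-beta. *Thbs2* read 12.13, 12.17 and 12.23 in control and 11.94, 11.96 and 11.77 with PTH. All PTH arrays were lower. The log2 change was −0.29 (SE 0.12, 95% interval −0.57 to −0.01), or 1.22-fold lower, with an unadjusted p of 0.0448 and an adjusted p of 0.325 by limma. Its raw signals overlapped, at 3637, 4638 and 4758 in control and 3357, 4214 and 4933 with PTH.

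*Thbs1* was far less clear of its background. Its brighter probe read 7.14, 6.98 and 7.16 in control and 7.02, 6.97 and 6.57 with PTH. The groups overlapped and the lowest value was that of PTH 3, and the log2 change was −0.24 (SE 0.15, 95% interval −0.60 to 0.12, adjusted p = 0.541 by limma). The other *Thbs1* probe was above background on 1 control array and no PTH array and was not tested. The change of *Thbs1* differed from that of its paralog *Thbs2* by 0.05 on the log2 scale, and the array-by-array differences overlapped between groups (exact two-sided permutation p = 0.8).

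Thrombospondin-3 and thrombospondin-4 belong to the pentameric subgroup of the family, found in skeletal tissue, tendon and muscle. The brightest *Thbs3* probe read 5.54, 5.29 and 5.16 in control and 5.13, 5.77 and 5.14 with PTH. The values were close to the detection limits, with the highest and the lowest both in the PTH group, and the change was 0.02 (SE 0.20, 95% interval −0.45 to 0.49, adjusted p = 0.981 by limma). A further *Thbs3* probe changed by −0.06 (SE 0.37, adjusted p = 0.962 by limma), and the remaining one was above background on 1 array and was not tested. The *Thbs4* probe was above background on none of the 6 arrays, with normalized values of 4.34 to 4.65. No difference between *Thbs3* and *Thbs4*, or between *Sparc* and *Sparcl1*, could be tested for this reason.

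Tenascin-C, from *Tnc*, is a six-armed glycoprotein that loosens cell attachment, is induced by mechanical load and injury, and is made by osteoblasts and periosteum. Its brightest probe, ILMN_2463181, read 12.99, 13.06 and 13.17 in control and 12.97, 12.96 and 12.81 with PTH. All PTH arrays lay below all control arrays, but by as little as 0.02, and the log2 change was −0.16 (SE 0.12, 95% interval −0.44 to 0.12, adjusted p = 0.617 by limma). Raw signals of this probe overlapped, at 6622, 8478 and 9324 in control and 6818, 8236 and 10130 with PTH. The other bright probe, ILMN_2463180, changed by −0.16 as well, with overlapping groups (adjusted p = 0.616 by limma). Dimmer probes ILMN_2485085 and ILMN_1236724 changed by 0.09 and 0.02, and neither passed the test.

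A dim probe of *Tnc* was the only matricellular probe to pass, and its control values were near background. ILMN_2454497 read 4.81, 4.80 and 5.12 in control and 5.70, 5.80 and 5.63 with PTH. All PTH arrays were higher, and the log2 change was 0.80 (SE 0.14, 95% interval 0.48 to 1.12), or 1.74-fold, with an adjusted p of 0.0348 by limma. This was 1 of 19 matricellular probes tested, where 1.61% of all probes passed, and groups did not overlap for 8 of the 19, against 20.8% of all probes. Several of the 8 were probes of the same gene, all *Sparc* probes among them, so they are not separate results. ILMN_2454497 was above background on 1 control array and all 3 PTH arrays, so it entered the test through the group where it was high. Its control mean of 4.91 was below the detection limit of every array. The change was 0.26 without background correction, 0.43 with an offset of 50 and 1.63 with background subtraction, and it passed in none of these (adjusted p = 0.111, 0.0572 and 0.112 by limma). Its raw signals were 119.7, 131.6 and 122.8 in control and 134.3, 146.1 and 164.7 with PTH, and the call was also lost when any 1 of the 6 arrays was left out (adjusted p of 0.0546 to 0.139 by limma). Its change exceeded that of the brightest *Tnc* probe by 0.96, without overlap (exact two-sided permutation p = 0.1, 0.275 after adjustment over the 11 comparisons). The sixth probe, ILMN_1251943, ranged from 4.48 to 5.76 over the 6 arrays and changed by −0.09 (SE 0.31, adjusted p = 0.931 by limma). With the mean of all *Tnc* probes, the change of the gene turned to 0.08.

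Fibronectin, from *Fn1*, is bound by integrins and forms the first fibrils on which collagen is laid, and osteoblasts need it to mature. Its brightest probe, ILMN_2595714, read 12.23, 12.08 and 12.02 in control and 12.48, 12.44 and 12.56 with PTH. All PTH arrays were higher than all control arrays, in raw signal too, at 3852, 4387 and 4170 in control and 4917, 5781 and 8623 with PTH. The log2 change was 0.38 (SE 0.12, 95% interval 0.10 to 0.67), or 1.31-fold, with an unadjusted p of 0.0139 and an adjusted p of 0.198 by limma. *Fn1* had the largest positive change of the 8 genes tested. With the mean of its tested probes the change was 0.53, which did not pass either (adjusted p = 0.0642 by limma).

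The other *Fn1* probes also read above their control means, with wider spread. ILMN_2588227 read 7.89, 8.37 and 8.51 in control and 8.28, 8.75 and 9.22 with PTH, a change of 0.49 (SE 0.26, adjusted p = 0.439 by limma) with overlapping groups. ILMN_2646618 read 6.04, 5.19 and 4.96 in control and 6.43, 6.14 and 5.75 with PTH, a change of 0.71 (SE 0.30, adjusted p = 0.318 by limma), and its groups overlapped through the control 1 array. It was above background on 2 control arrays and all 3 PTH arrays, and its control 2 and 3 values were near the detection limit. The change of ILMN_2646618 was 0.26 without background correction and 1.13 with background subtraction. With an array left out it was 0.49 to 1.06, and that of ILMN_2588227 was 0.26 to 0.73. Their changes exceeded that of the brightest probe by 0.11 and 0.33, with overlap between groups (exact two-sided permutation p = 0.7 and 0.4). The remaining probe, ILMN_1260125, was above background on 1 control array and was not tested.

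Periostin and the TGF-beta-induced protein, from *Postn* and *Tgfbi*, share the fasciclin domains that give their family its name, and periostin is a classical marker of the periosteum. The tested *Postn* probe read 5.18, 4.63 and 5.02 in control and 5.25, 4.67 and 5.02 with PTH. It was above background on arrays 1 and 3 of each group and on neither array 2, and its log2 change was 0.04 (SE 0.20, 95% interval −0.43 to 0.51, adjusted p = 0.953 by limma). The other *Postn* probe read 5.10, 5.07 and 4.90 in control and 4.34, 4.60 and 4.53 with PTH, but was above background on the control 2 array alone, and was not tested.

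*Tgfbi* was well above background on every array. Its brighter probe read 10.93, 11.06 and 11.29 in control and 11.08, 10.93 and 11.28 with PTH, with a change of 0.00 (SE 0.15, 95% interval −0.35 to 0.35, adjusted p = 0.998 by limma). The groups were interleaved. Its second probe, ILMN_2727663, read between 8.88 and 9.10 in control and 8.66, 8.60 and 8.63 with PTH, all PTH arrays below control, a change of −0.36 (SE 0.12, adjusted p = 0.213 by limma). The raw signals of this probe overlapped. Between the probes the changes differed by −0.36 (exact two-sided permutation p = 0.1, 0.275 after adjustment). The changes of *Postn* and *Tgfbi* differed by 0.04, with overlap (exact two-sided permutation p = 0.8). All probes are set side by side in the plot of changes by probe.

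**Figure D3:**
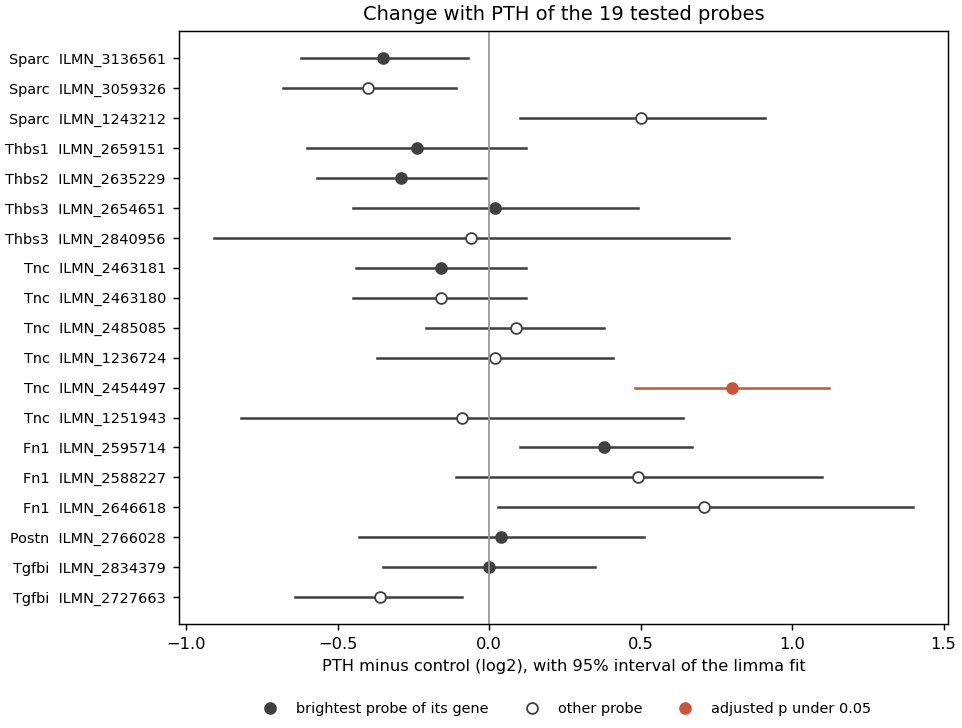
Log2 change with PTH (horizontal axis) of the 19 tested probes of the matricellular genes, 3 PTH against 3 control arrays, with the 95% interval of the limma fit as a line; filled symbols are the brightest probe of each gene and red marks an adjusted p under 0.05. *Tnc* probe ILMN_2454497, at 0.80, is the only one in red, and the brightest probes lie between −0.35 and 0.38.

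The receptors through which these proteins act include integrins, the thrombospondin receptors CD36 and CD47, syndecan-4, and stabilin-1, which takes up osteonectin. Of 16 receptor genes listed, 9 were tested, 1 passed as lower and none as higher with PTH, where 1.04% and 0.685% of all genes did, and the median log2 change was 0.00. *Stab1*, the stabilin-1 gene, read 8.71, 8.56 and 8.65 in control and 7.85, 7.75 and 7.86 with PTH. It was lower on all PTH arrays and fell by 0.82 on the log2 scale (SE 0.12, adjusted p = 0.0193 by limma). The call was lost when any 1 array was left out (adjusted p of 0.0597 to 0.1 by limma), with changes of −0.86 to −0.78. Calls among all genes then numbered 48 to 78, against 207 with all 6 arrays. Stabilin-1 is also known from sinusoidal endothelium and tissue macrophages. Of 7 macrophage markers, 6 were tested and none passed, and their summed level was 13.46 to 13.79 in control and 13.49 to 13.79 with PTH. Among them *Mrc1* changed by −0.80, *Adgre1* by −0.27 and *Cd14* by 0.39, with no overlap in any (adjusted p = 0.132, 0.42 and 0.184 by limma). *Csf1r*, *Cd68* and *Lyz2* changed by −0.04, −0.02 and 0.07, and *Cd163* was above background on no array. *Lyz2* was the brightest of the list, at 13.06 in control and 13.12 with PTH, and weighs most in the summed level. Of 7 endothelial markers, all tested, none passed. Their median change was −0.38, with 5 changes below 0 and 2 above. *Vwf* changed by −0.45 without overlap and *Kdr* by −0.38 (adjusted p = 0.177 and 0.379 by limma), but *Kdr* was above background on only 1 PTH array. *Emcn* and *Pecam1* changed by 0.07 and 0.06 (adjusted p = 0.859 and 0.908 by limma). The summed endothelial level was 10.55 to 10.71 in control and 10.50 to 10.55 with PTH, with *Emcn* the brightest of the list. The part of these cells in the *Stab1* value was not tested.

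The integrin subunit *Itgav*, which pairs with several beta subunits to bind fibronectin, periostin and tenascin-C, read 7.18, 6.83 and 6.93 in control and 7.46, 7.65 and 7.56 with PTH. All PTH arrays were higher, and the change of 0.58 (SE 0.14) did not pass (adjusted p = 0.106 by limma). It was 1 of 4 of the 9 receptor genes tested whose groups did not overlap, as for 21.9% of all genes. The others were *Cd47* at 0.35 (adjusted p = 0.248), *Cacna2d1*, a calcium channel subunit that binds thrombospondins, at −0.35 (adjusted p = 0.349 by limma), and *Stab1*. The *Itga9*, *Itgb8* and *Cd36* probes were above background on no array.

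Genes for the collagens, enzymes and fibrils that matricellular proteins help to assemble were all measured, 11 of 11. Of these 1 passed as higher and none as lower, 7 had groups that did not overlap, against 1.73% passing and 21.9% not overlapping among all genes, and the median log2 change was 0.07. *Col3a1*, which encodes the fibril collagen of type III found with type I in periosteum and vessels, read 9.68, 9.53 and 9.73 in control and 10.43, 10.54 and 10.74 with PTH. It was higher on all PTH arrays and rose by 0.92 on the log2 scale (SE 0.14, 1.89-fold, adjusted p = 0.0211 by limma). This call was also lost when any 1 array was left out (adjusted p of 0.0525 to 0.0995 by limma), with changes of 0.84 to 0.99. With the mean of its tested probes the change was smaller, at 0.69 (adjusted p = 0.0224 by limma). *Col1a1*, the main collagen of bone, read 13.55, 13.61 and 13.66 in control and 13.00, 13.02 and 13.17 with PTH, with no overlap and a change of −0.54 (SE 0.12) that did not pass (adjusted p = 0.0798 by limma). *Col1a2*, the partner chain, read almost alike on all 6 arrays, between 13.00 and 13.11. *Tgm2*, the transglutaminase that cross-links fibronectin, changed by 0.57 (SE 0.12, adjusted p = 0.0759 by limma), with all PTH arrays higher.

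Beyond the 10 genes, 21 further matricellular genes were listed and 14 tested, of which none passed by limma. An unadjusted p under 0.05 was reached by 4 of the 14, *Smoc2* among them, against 14.9% of all genes. Their median log2 change was 0.14. *Smoc2*, a calcium-binding relative of *Sparc*, was detected on all 3 PTH arrays, where it read 5.59, 5.21 and 5.64, and on no control array, so that it entered the test through the PTH arrays alone, and was at least 1.35-fold higher than the control arrays' limit (adjusted p = 0.125 by limma). *Fbln1*, a fibulin that binds fibronectin, read 8.38, 8.34 and 8.44 in control and 8.81, 8.74 and 9.02 with PTH, a change of 0.47 (adjusted p = 0.141 by limma) without overlap. Of 11 genes of the TGF-beta axis, which thrombospondin-1 activates and which induces *Tgfbi*, *Postn* and *Fn1* in many cells, 10 were tested and none passed by limma. Of the 10, 2 had an unadjusted p under 0.05, where 14.9% of all genes did, and the median change was −0.12. *Tgfb1*, the main ligand in bone matrix, changed by −0.37 and *Tgfbr1*, a receptor, by 0.34 (adjusted p = 0.248 and 0.283 by limma).

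**Figure D4:**
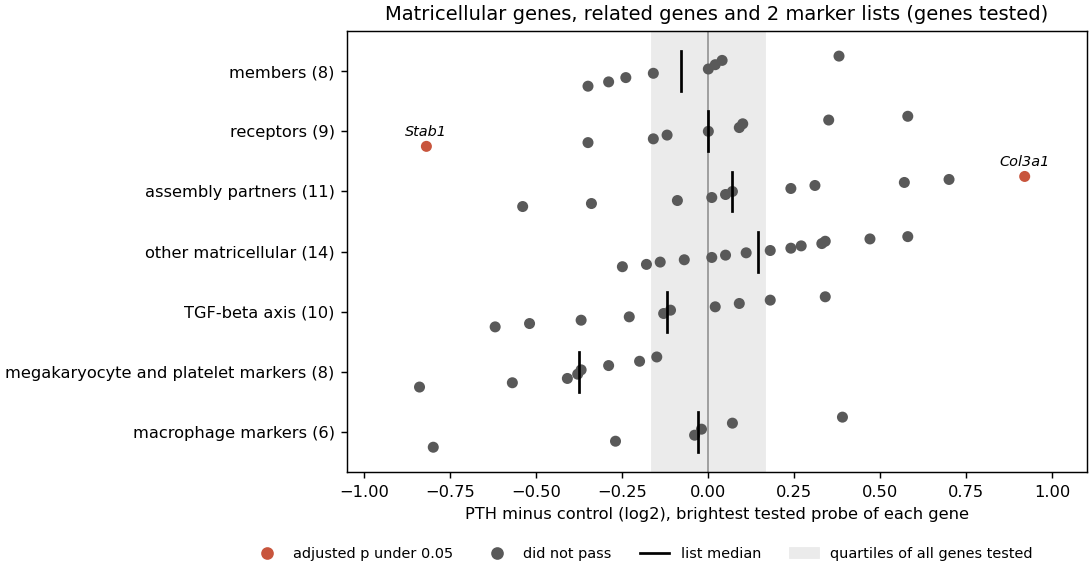
Log2 change with PTH (horizontal axis) of each tested gene of the matricellular list, the lists related to it and 2 marker lists, 3 PTH against 3 control arrays, with the number of genes tested in brackets, list medians as black bars and the quartiles of all genes tested in grey. *Stab1* at −0.82 and *Col3a1* at 0.92 are the only genes in red, which marks an adjusted p under 0.05, and all 8 platelet markers lie below 0.

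Several members are also made by cells other than those of bone, so marker lists were set beside them. Platelets store thrombospondin-1, fibronectin and osteonectin. Of 9 megakaryocyte and platelet markers 8 were tested and none passed, all 8 changes lay below 0 with a median of −0.38, and the summed level was 11.89 or more on each control array and 11.57 to 11.61 with PTH. Of the members named, *Thbs1* changed by −0.24, *Fn1* by 0.38, and the *Sparc* probes by −0.35, −0.40 and 0.50. *Ppbp* changed by −0.57 and *Gp5* by −0.37 (adjusted p = 0.129 and 0.208 by limma), none of the 9 was below background on every array, and the part of platelets in the values of these members was not tested. Tendon, a source of *Tnc* and *Thbs4*, was represented by 4 markers, of which 3 were tested and none passed, with a summed level of 9.89 to 10.28 in control and 9.48 to 9.70 with PTH. *Tnmd* was above background on 1 array of each group, and *Fmod* changed by −0.87 and *Scx* by −0.13 (adjusted p = 0.110 and 0.701 by limma). Of 6 skeletal muscle markers 4 were above background on no array, and the tested ones, *Tnni2* and *Mylpf*, changed by −0.55 and −0.08 (adjusted p = 0.116 and 0.879 by limma). Of 7 neutrophil markers 4 passed as lower with PTH, *Mpo*, *Ngp*, *Elane* and *Ltf*, and of 2 red cell markers tested both did, *Hba-a1* and *Hbb-b1*, where 1.04% of all genes passed as lower. The median changes of these lists were −0.72 and −1.93. Of 5 smooth muscle and pericyte markers 3 were tested and none passed, the smallest adjusted p being those of *Rgs5* (0.198) and *Des* (0.332 by limma). *Rgs5* was above background on all PTH arrays and no control array, so that it entered the test through the PTH arrays alone. It was at least 1.15-fold higher with PTH than the control arrays' limit, and *Des* changed by −0.42. Of 6 cartilage markers 2 were tested and 1 passed, *Agc1*, the aggrecan gene, which was above background on all control arrays and no PTH array, so that it entered the test through the control arrays alone, and was at least 1.59-fold lower with PTH (adjusted p = 0.0114 by limma).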

How the data were processed

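RNA from 3 control and 3 PTH preparations was hybridized to an Illumina mouse v6 bead array. The authors deposited linear signal intensity for each of 45281 probes and each array, not normalized, with a detection p-value for each, and GenomeStudio is named in the submitters' processing notes, with no version. The authors' normalized values and scores were not used here. From the signals, normexp background correction through the detection p-values with an offset of 16, quantile normalization and log2 values were computed with limma 3.58.1 in R 4.3.3. Probes with a detection p under 0.05 on at least 3 of 6 arrays were tested with lmFit and eBayes, and p was adjusted by Benjamini-Hochberg over 16214 probes. A gene (11979 tested) was called at an adjusted p under 0.05. The number of arrays limits the precision. The changes of probes of 1 gene and of paralogs were compared by exact permutation of the 3 and 3 arrays. A summed level is the log2 of a list's summed linear signals.

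The members, gene lists, tests and motifs were chosen with earlier results of these data known. All members were named with all probes, and of every other list the genes called, or else the 2 of smallest adjusted p; others in the text were chosen after their values were seen. The procedure was tested on simulated data. Alternatives were other background corrections, scalings and filters, a replicate block, each array left out, other thresholds and probe rules, and the methods' t-test; a term for the arrays numbered 3 and a count of member probes were added after the data were seen. Symbols are those of the table. Promoters came from RefSeq, GRCm38.p6. Probe sequences were not used here.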

Additional observations from a re-analysis of the deposited data

How the results depend on the processing

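No matricellular gene passed under the alternatives run, except that 2 did with quantile normalization without background correction (*Fn1*, adjusted p = 0.022, and *Sparc*, 0.0334) and 3 by the methods' t-test without adjustment. Counts below are given in the order all genes, receptors, assembly partners and matricellular probes, which were 207, 1, 1 and 1. They were 589, 2, 3 and 4 without background correction, 402, 1, 3 and 0 with an offset of 50, 86, 1, 0 and 0 with background subtraction, 65, 0, 0 and 0 with median scaling, 340, 2, 3 and 0 with a detection p under 0.01 on all 6 arrays, 17, 0, 0 and 0 against a fold change of 1.5, 91, 1, 0 and 0 by the methods' t-test with adjustment, and 1783, 3, 6 and 6 without it. Without background correction the 4 probes were 1 of *Fn1* and 3 of *Sparc*, and the *Tnc* probe ILMN_2454497 was not among them. The *Sparc* probes passed in opposite directions, at −0.344, −0.393 and, for ILMN_1243212, 0.489 (adjusted p = 0.0334, 0.0191 and 0.0246 by limma). Each array left out gave 48 to 78, 0, 0 and 0. The *Tnc* probe was also lost (0) without a detection filter and when the arrays numbered 3 had a term of their own. Of the other matricellular genes 1 passed without background correction, and 4, with 2 of the TGF-beta axis, by the unadjusted t-test.

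Replicate numbers 1 and 2 did not pair the samples. Deviations from the group means correlated by 0.067 and 0.064 within these numbers and by 0.073 and 0.07 across them. The arrays numbered 3 correlated with each other by 0.273, and with arrays of other numbers in the other group by −0.142 to −0.134. The deviations within a group sum to 0, so these correlations are tied to each other and are not separate observations. What the arrays numbered 3 shared was not tested. With the number as a replicate block the counts were 44, 0, 0 and 0.

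Of calls, 52.3% were higher with PTH under median scaling and 39.6% in the analysis reported. Changes near 0 turned sign. *Tgfbi* was 0.071 with median scaling, where the median change of all genes tested was 0.083, against 0.005 in the analysis reported. With an array left out *Tgfbi* was −0.094 to 0.097. *Thbs3* was −0.002 with background subtraction, −0.021 with the mean of probes and −0.195 to 0.132 with an array left out, and *Tnc* was 0.083 with the mean of probes. *Tnc* probe ILMN_1251943 was 0.725 with background subtraction. With an array left out it was −0.451 to 0.204, ILMN_1236724 was −0.142 to 0.135, *Thbs3* probe ILMN_2840956 was −0.399 to 0.252, and *Postn* was −0.117 to 0.197. The *Postn* and *Tgfbi* difference was −0.021 with median scaling and −0.107 to 0.245 with an array left out, and that of *Thbs1* and *Thbs2* was −0.016 to 0.121. The causes were not tested. A slide block could not be run, since the table names no slide. Probes near the detection limit (those of *Postn*, *Thbs3*, *Thbs4* and *Sparcl1*, and the dimmest of *Tnc* and *Fn1*) limit what could be seen.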
